A study of Canis lupus familiaris with 33 samples.

Results

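The immediate-early response genes FOS, FOSB, JUN, JUNB, JUND, ATF3, EGR1, EGR3, IER2 and DUSP1 were examined in canine invasive urothelial carcinoma (iUC), a cancer of the bladder lining that arises naturally in dogs. They were picked by symbol from the deposited TMM-normalized table (TMM rescales each library so that most genes keep the same level), where each symbol has 1 row, so they are 10 of 25096 genes. The table's Entrez identifier matches that of the same symbol in a RefSeq gene table for 9 of the 10, and its row for DUSP1 gives none, so that gene rests on the symbol alone. The samples are 29 tumors and 4 pieces of normal bladder mucosa. Tumors are numbered 1 to 29 here in their deposited order, and these numbers are not those in the sample titles. Normals A to D keep the letters of their titles. The tumors came from untreated dogs, 1 from each, by biopsy through a cystoscope, and were high grade with mostly epithelial cells. The normals were the urothelial layer dissected off whole bladders of dogs put down for reasons unrelated to the bladder. The study's groups are defined by diagnosis, with no agent or transgene given by the investigators. Earlier treatment of the dogs that gave the normals is not given in the sources used here, and ages and breeds were not used. How the tissue was obtained differs between the groups in the same way as the diagnosis, so that handling and disease cannot be told apart in any comparison of tumors with normals.

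Immediate-early genes are transcribed within minutes of a signal such as a growth factor, a cytokine or a mechanical insult, without new protein synthesis, mostly through MAP kinases acting on the serum response factor SRF, its ternary complex partners and CREB. Fos and Jun family proteins and ATF3 pair through leucine zippers to form the transcription factor AP-1, and the EGR proteins are zinc finger transcription factors. Since surgery, tissue dissociation and delay before fixation also induce these genes, their RNA is known to be sensitive to how a sample was taken.

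Values are normalized expression on a log2 scale, centred gene by gene on the median of all 33 samples, so 0 is the middle sample for a gene, 1 unit is a 2-fold difference, and values show how samples differ in a gene, not how abundant 1 gene is beside another. Total counts of the samples are not known. Many genes have a lowest value that several samples share. Between 755 and 1019 genes lay at it in a normal and 3699 to 8175 in a tumor (median 6876). Tumors 14, 17 and 25 had 3699 to 4638 such genes and stand apart from the other 26 tumors, which had 5945 to 8175. All 10 members were above any such floor in every sample, and all passed the filter on low values.

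The cell types in the samples were checked by marker lists, each summarised as the mean log2 value of its genes. A gene was called when its limma adjusted p was at most 0.05 and its change at least 2-fold, which 10.7% of all genes tested met as higher and 45.8% as lower in tumors. Of 9 urothelial markers measured, KRT20 was at its lowest value in 9 samples and the other 8 in none. Smooth muscle markers were lower in tumors for 6 of 6 genes, at 4.54 to 6.58 in the normals and -1.29 to 3.52 in the tumors (median -0.31). Fibroblast markers were lower for 6 of 6, at 2.48 to 3.11 in the normals and -2.28 to 2.13 in the tumors, and Schwann and nerve markers for 3 of 3, at 5.31 to 6.04 and -1.90 to 2.98. Each normal was thus above every tumor in the level of all 3 lists. No smooth muscle or fibroblast marker was at its lowest value in 2 or more tumors, whereas SOX10, CDH19 and NCAM1 were. So was MS4A1 of the leukocyte list, with 4 samples at its lowest value. Endothelial markers overlapped fully, at -0.26 to 0.34 in the normals and -1.49 to 1.72 in the tumors, with 0 of 6 called in either direction, and leukocyte markers lay at -0.14 to 0.46 and -1.41 to 2.06, with 1 of 8 called higher (CD68) and 2 lower (MS4A1 and ITGAM). Urothelial markers lay at -1.49 to -0.26 in the normals and -1.30 to 0.73 in the tumors, with 5 of 9 called higher and KRT20 called lower. Of the endothelial markers, 1 was called lower in the DESeq table, and the lower fibroblast calls numbered 5 without normal A or D. The higher urothelial calls numbered 3 in the DESeq table and without normal D, and the lower leukocyte calls 1 whichever normal was left out. In bulk RNA, fewer cells of a type and less RNA per cell cannot be told apart, and the part of these cell types in the differences below was not tested.

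Tumors and normals were first compared gene by gene, to ask which members differ between cancer and normal mucosa. FOS, FOSB, JUNB, JUND and IER2 rose in tumors, by 2.22-fold (IER2) to 7.62-fold (FOSB). JUN, EGR1, EGR3, ATF3 and DUSP1 did not pass the test. A member was called when limma, fitted over all 24471 genes tested, gave a Benjamini-Hochberg adjusted p of at most 0.05 and the change was at least 2-fold. By that rule 5 of 10 members were called higher, against 10.7% of all genes tested, and 0 of 10 were called lower, against 45.8% of all genes tested. No member was lower at an unadjusted limma p under 0.05 either, and 6 were higher. The exact permutation test of each member on its own, with the same 2-fold threshold, called 5 higher and 0 lower. The members' median log2 fold change was 1.30, beside -0.84 for all genes tested and -0.01 for the 18418 genes whose median lies above their lowest value. All 10 members are among those 18418 genes, of which 2615 were called higher and 5602 lower.

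**Figure D1:**
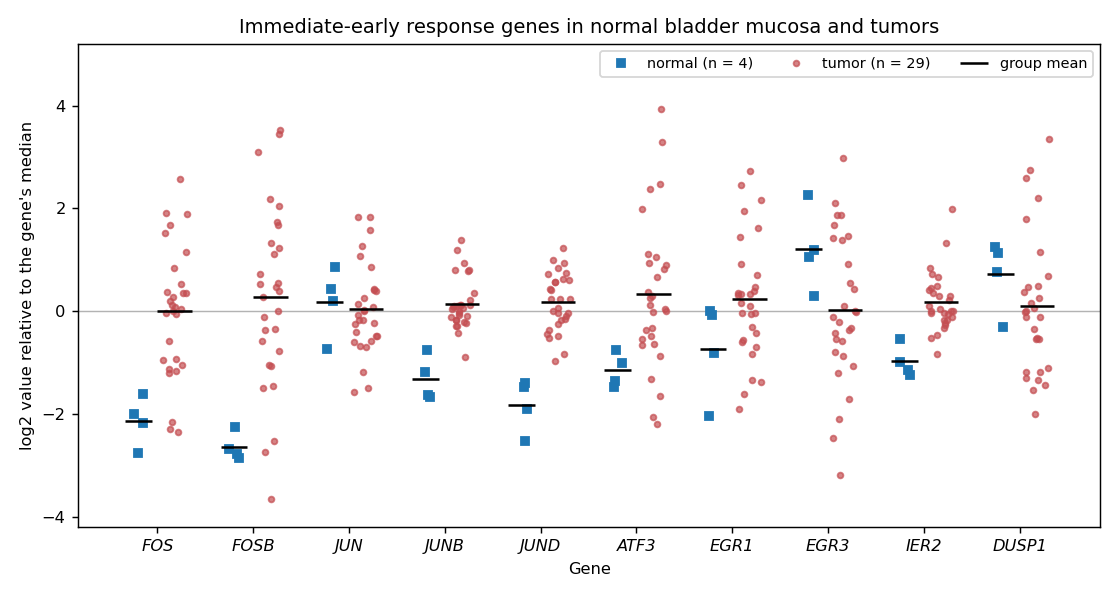
Log2 value relative to the gene's median (vertical axis) of the 10 genes in the 4 normals (blue squares) and the 29 tumors (red circles), with horizontal lines at the group means. All 29 tumors lie above every normal in JUND, 28 of 29 in JUNB and IER2, and 26 of 29 in FOS and FOSB, while JUN overlaps fully.

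FOS, the founding Fos subunit of AP-1, was at -2.77, -1.61, -2.0 and -2.17 in normals A to D. In the tumors it ran from -2.35 to 2.58 with a median of 0.09. Of the 29 tumors, 26 lay above all 4 normals, and tumors 4, 9 and 29 lay within the normals' range. The rise was 2.13 on the log2 scale (SE 0.63, 95% interval 0.86 to 3.41, limma adjusted p = 0.00305), and the exact permutation p was 0.00156.

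FOSB, a Fos family member whose protein also exists in a truncated stable form, showed the largest change of the 10. Normals A to D had values of -2.79, -2.25, -2.87 and -2.69, close to each other (SD 0.27). The tumors spread from -3.66 to 3.53 (median 0.40), a range of 7.18 log2 units. The same tumors as for FOS failed to exceed the normals: tumors 4 and 29 lay among them and tumor 9 lay below all 4. The log2 fold change was 2.93 (SE 0.87, 95% interval 1.17 to 4.69, limma adjusted p = 0.00323, exact permutation p = 0.00188).

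Among the Jun subunits, JUND showed the cleanest separation. JUND, the most constitutively expressed of the family, stood at -1.91, -1.40, -2.54 and -1.48 in the normals and at -0.97 to 1.22 (median 0.23) in the tumors. No tumor reached down to any normal. The log2 fold change was 2.00 (SE 0.29, 95% interval 1.41 to 2.60, limma adjusted p = 3.12e-07), and the exact permutation p of 2.44e-05 is the smallest that the 40920 arrangements can give.

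JUNB, a Jun protein that can also antagonise JUN, was at -1.64, -0.75, -1.18 and -1.68 in the normals. Its tumor values ran from -0.89 to 1.38 (median 0.07), and 28 tumors were above all normals, with tumor 1 inside their range. The increase was 1.46 (SE 0.26, 95% interval 0.92 to 1.99, limma adjusted p = 1.05e-05, exact permutation p = 4.89e-05) on the log2 scale, or 2.75-fold.

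JUN itself gave no separation. Its values were -0.75, 0.42, 0.19 and 0.86 in the normals and -1.57 to 1.84 (median -0.08) in the tumors. Of the tumors, 20 lay within the normals' range, 6 above and 3 below. The log2 fold change of -0.14 had a 95% interval from -1.06 to 0.77, which takes in a 2-fold fall (limma adjusted p = 0.783, exact permutation p = 0.759). Its sign turned when normal D was left out, to 0.081 (limma adjusted p = 0.897).

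ATF3, a stress-induced ATF/CREB family protein that dimerises with Jun proteins, lay just outside the threshold. The normals were at -1.36, -0.77, -1.01 and -1.48 and the tumors at -2.19 to 3.94 (median 0.13). Above all normals were 24 tumors, below all were tumors 2, 4 and 29, and the remaining 2 (tumors 6 and 12) lay between. The log2 fold change was 1.48 (SE 0.72, 95% interval 0.02 to 2.94, limma adjusted p = 0.0654, exact permutation p = 0.0539). Without tumor 4 it was 1.57 with an adjusted p of 0.0429 in limma, and without tumor 29 it was 1.57 with an adjusted p of 0.0450, which would be calls. In the DESeq table it was farther from a call, at 1.18 (limma adjusted p = 0.147).

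EGR1 and EGR3, zinc finger factors that follow mitogen and antigen receptor signals, did not pass, with estimates of opposite sign. EGR1 was at -2.04, 0.00, -0.82 and -0.07 in the normals and -1.91 to 2.74 (median 0.15) in the tumors, of which 16 lay above all normals and 13 among them. Its log2 fold change was 0.96 (SE 0.60, 95% interval -0.26 to 2.18, limma adjusted p = 0.153, exact permutation p = 0.133), and without normal A, the lowest of the normals, it was 0.52 (adjusted p = 0.503). EGR3 was at 1.05, 2.27, 0.30 and 1.19 in the normals and -3.19 to 2.98 (median -0.12) in the tumors. Below every normal lay 18 tumors, among them 10 and above them 1. The EGR3 log2 fold change was -1.18 (SE 0.72, 95% interval -2.65 to 0.29, limma adjusted p = 0.145, exact permutation p = 0.127).

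IER2, a small nuclear protein first found among serum-induced genes, was at -1.15, -0.54, -1.0 and -1.24 in the normals and at -0.84 to 1.99 (median 0.01) in the tumors. Of the tumors, 28 were above all normals and tumor 5 was within them. The change of 1.15 (SE 0.29, 95% interval 0.56 to 1.74, limma adjusted p = 0.000725, exact permutation p = 0.000806) passed both thresholds. In the RefSeq annotation of another canine assembly IER2 and JUNB lie on the same chromosome with 19 protein-coding genes between them.

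DUSP1, the phosphatase that switches off p38, JNK and ERK and so limits the signal that induces the other members, had values of -0.30, 1.26, 0.77 and 1.14 in the normals. The tumors ran from -2.0 to 3.36 with a median of -0.02. Below all normals were 12 tumors, within them 12 and above them 5. The log2 fold change was -0.61 (SE 0.68, 95% interval -2.0 to 0.78, limma adjusted p = 0.427, exact permutation p = 0.398), and without normal A it was -0.95 (adjusted p = 0.285).

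**Figure D2:**
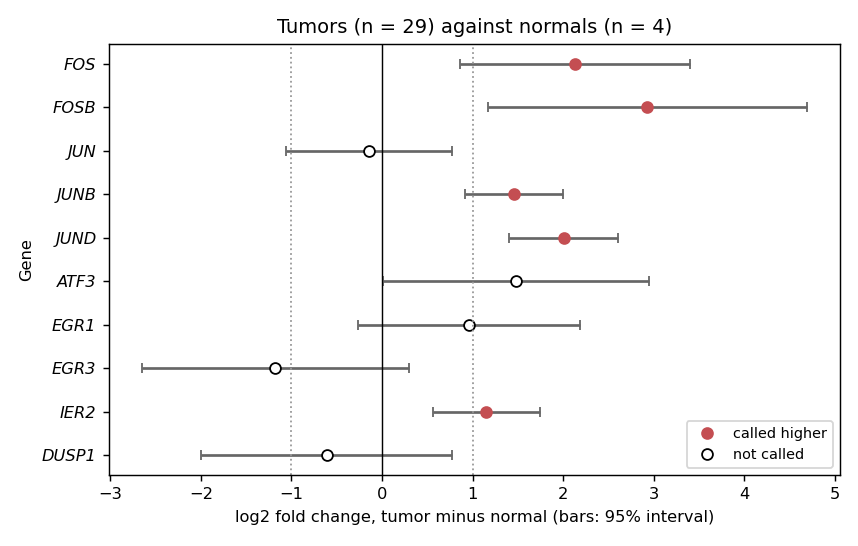
Log2 fold change, tumor minus normal (horizontal axis), of each gene with its 95% interval from limma; filled circles were called and open circles were not, and dotted lines mark 2-fold. The 5 filled circles lie between 1.15 (IER2) and 2.93 (FOSB), and of the 5 open ones ATF3 comes nearest, with an interval from 0.02 to 2.94.

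The deposited DESeq-normalized table gave 1 call fewer, IER2. In it the median log2 fold change of genes with a median above their lowest value was -0.29, against -0.01 in the TMM table, and each member was lower by about that shift. FOS, FOSB, JUNB and JUND were called higher, 4 of 10 members, against 5.62% of the 24517 genes tested, and 0 of 10 were called lower, against 49.1%. IER2 changed by 0.85 there (limma adjusted p = 0.0113), under 2-fold, and by 1.15 relative to the shifted median. Relative to that median, FOS rose by 2.13, FOSB by 2.93, JUNB by 1.45 and JUND by 2.00 on the log2 scale.

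The spread over tumors differed widely between members. FOSB had the widest range, 145-fold between tumor 9 and tumor 22, and its SD over tumors exceeded that of 95.5% of the 18418 genes with a median above their lowest value. ATF3 and EGR3 ranged over 69.8-fold and 72.0-fold, with SDs at the percentiles 90.3 and 89.9, and DUSP1 over 41.1-fold at percentile 87.7. FOS (30.5-fold, percentile 83.3) and EGR1 (25-fold, percentile 79.7) followed. JUN varied over 10.6-fold (percentile 59.8). The narrowest were IER2, at 7.07-fold (percentile 37.8), JUNB, at 4.81-fold (percentile 31.4), and JUND, at 4.58-fold (percentile 37.1), and these 3 were also the ones in which at least 28 of 29 tumors cleared every normal.

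To see which tumors carried these differences, each member was turned into a z score over the tumors and averaged. Tumor 22 had the highest mean, 1.90, and was the highest of all tumors in 7 members, with ATF3 at 3.94, FOSB at 3.53, DUSP1 at 3.36, EGR1 at 2.74, FOS at 2.58, JUN at 1.84 and JUNB at 1.38. Tumors 28 (mean z 1.64), 20 (1.39) and 25 (1.37) came next, and these 4 tumors were among the 5 highest in 8 or 9 members each. Tumor 25 is 1 of the 3 with few genes at the lowest value, while the other two, tumors 14 and 17, had mean z scores of -0.33 and 0.45. At the other end, tumor 29 had a mean of -1.30, lay below the tumor median in all 10 members and was among the 5 lowest in 7. Tumor 4 showed that members can part within a sample, with FOS at -2.16, FOSB at -2.53, ATF3 at -2.19 and DUSP1 at -2.0 but JUND at 0.83, IER2 at 0.66 and EGR1 at 0.47.

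**Figure D3:**
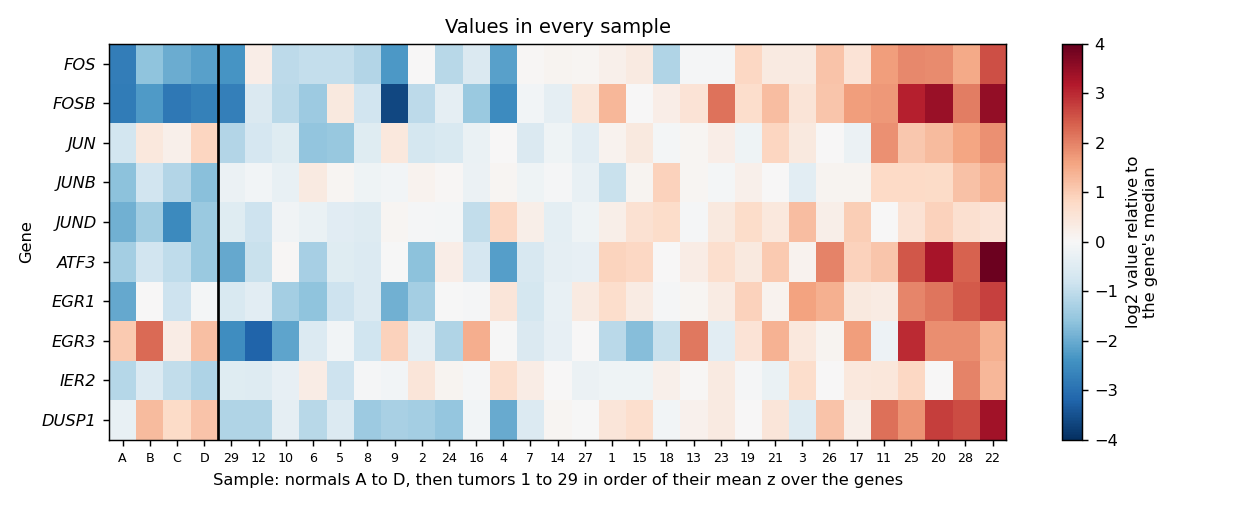
Log2 value relative to the gene's median (colour, blue low and red high) of the 10 genes (rows) in normals A to D and in the 29 tumors (columns), the tumors ordered by their mean z score over the genes. Tumors 25, 20, 28 and 22 at the right are high in nearly every row, tumor 29 is low, and the normals are low in FOS, FOSB, JUNB, JUND, ATF3 and IER2 but high in EGR3.

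Whether members rise and fall together was tested over the 29 tumors, leaving the normals out. Of 45 pairs of members, 44 were positively correlated past a Benjamini-Hochberg adjusted permutation p of 0.05 by Pearson's r and 38 by Spearman's rho. The r values ran from 0.348 to 0.907 with a median of 0.56. Among the 26 tumors without tumors 14, 17 and 25, 38 pairs passed, and 32 did when the 2 tumors with the most extreme values of a pair's first gene were set aside. Leaving out each tumor in turn left 38 to 45 pairs past the threshold, the fewest without tumor 22, and 37 pairs passed every time.

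By r over all 29 tumors the closest pair was ATF3 with DUSP1, at 0.907 (rho 0.879, permutation p = 1e-05 for both, the smallest that 100000 resamples can give, adjusted p = 5e-05). Without the 2 farthest tumors its r was 0.853, below FOSB with ATF3 at 0.913 and FOSB with DUSP1 at 0.866, and by rho FOSB with ATF3 was as high (0.880). FOS with FOSB followed at r = 0.884 (rho 0.813, adjusted permutation p = 5e-05 for both, 0.847 without the 2 farthest tumors). FOS with DUSP1 reached r = 0.865 (rho 0.824) and FOSB with ATF3 r = 0.851. DUSP1 thus varied with the Fos genes over tumors although, unlike them, it was not called between tumors and normals. The difference between these 2 comparisons was not tested.

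In a grouping chosen after the values were seen, the 15 pairs among FOS, FOSB, ATF3, DUSP1, EGR1 and JUN had r of 0.630 to 0.907 (median 0.786). The other 30 pairs, each with at least 1 of JUNB, JUND, IER2 and EGR3, had r of 0.348 to 0.659 (median 0.512), so the ranges overlap. JUNB with JUND, at r = 0.348, was the pair that did not pass by r (adjusted permutation p = 0.0647), while by rho, 0.425, it passed (adjusted permutation p = 0.0276). IER2 with DUSP1 rested on a few tumors: r was 0.479, rho 0.239, and r without the 2 farthest tumors 0.128.

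**Figure D4:**
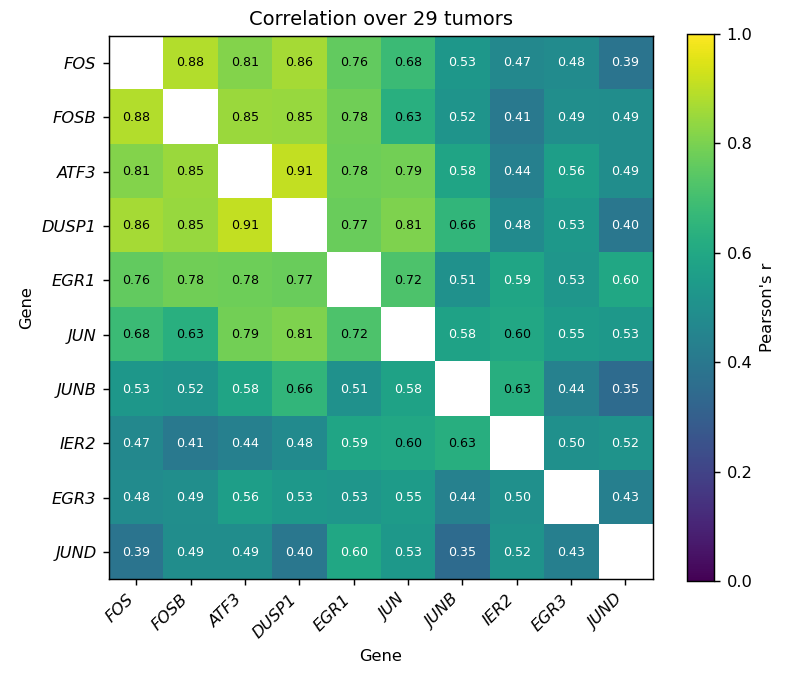
Pearson's r over the 29 tumors (colour and printed number) for every pair of the 10 genes. The 6 genes in the upper left block have r of 0.630 or more with each other, and pairs with JUND, JUNB, IER2 or EGR3 lie between 0.348 (JUNB with JUND) and 0.659 (JUNB with DUSP1).

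As a description with no test, each member was set against the mean z of the other 9. DUSP1 had r = 0.879, ATF3 0.870, EGR1 0.843, FOSB 0.823, JUN 0.820 and FOS 0.817. For these 6 members, 1 to 3 of the 24079 non-member genes that vary over tumors had a higher r with the same mean. JUNB (0.654), IER2 (0.628), EGR3 (0.613) and JUND (0.565) were exceeded by 37, 58, 70 and 203 non-member genes. All genes share the libraries and their scaling, and the median r of the non-member genes lay between 0.02 and 0.03.

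The 10 non-member genes most like the members' mean z over the 29 tumors, among 11068 with a symbol and a median above their lowest value, are again a description. SOCS3, the feedback inhibitor of cytokine signalling through STAT3, had r = 0.899, and ZFP36, which destabilises AU-rich mRNAs, had 0.839. IL1B (0.811), IL6 (0.749) and OSM (0.711) encode inflammatory cytokines, and TNFAIP3 (0.765) and ICAM1 (0.714) are NF-kappaB target genes, the first an inhibitor of that pathway and the second a leukocyte adhesion molecule. RHOB (0.798), a small GTPase, STC1 (0.748), a secreted glycoprotein hormone, and EGR2 (0.719), a paralog of EGR1, complete the 10. Without tumors 14, 17 and 25, their r lay between 0.696 and 0.899. Of the 10, SOCS3 (log2 fold change 1.92, limma adjusted p = 0.00203) and TNFAIP3 (1.08, adjusted p = 0.00996) were called higher in tumors and none was called lower.

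The other genes of the pathway were taken from lists. Of 10 other AP-1 and small Maf subunits measured, 4 were called higher, 1 lower and 5 not, beside 10.7% higher and 45.8% lower of all genes tested. The small Maf proteins MAFG (log2 fold change 1.60, SE 0.25, limma adjusted p = 1.17e-06) and MAFF (1.32, SE 0.40, adjusted p = 0.0042) rose most, and MAFK and FOSL1, named after their values were seen, were the other two. BATF3, a leucine zipper factor of dendritic cells and lymphocytes, fell by 1.55 (SE 0.62, limma adjusted p = 0.0258). The count of higher calls was 2 in the DESeq table and also 2 without normal A, and BATF3 was not called without normal A, B or D.

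Of 26 other early response genes measured, 6 were called higher, 4 lower and 16 not, beside the same 10.7% and 45.8% of all genes, with a median log2 fold change of 0.50. TRIB1, a pseudokinase that scaffolds protein degradation, rose by 2.23 (SE 0.37, limma adjusted p = 2.25e-06) and CEBPB, a leucine zipper factor of inflammation, by 1.94 (SE 0.27, adjusted p = 1.47e-07). The largest falls were those of CTGF, a matricellular growth factor of stromal and muscle cells (-4.17, SE 0.61, limma adjusted p = 3.04e-07), and EGR4 (-2.85, SE 0.48, adjusted p = 3.35e-06). Every tumor was below every normal in both genes. The list also varied with the members over tumors: 14 of the 26 had r above 0.5 with the members' mean z (53.8%, against 2.01% of all genes tested), and the median r was 0.56. EGR2, the nearest relative measured, was not called (log2 fold change 0.31, limma adjusted p = 0.647) but had r = 0.719.

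Of 14 upstream kinases and factors measured, 2 were called higher, 1 lower and 11 not, beside 10.7% higher and 45.8% lower of all genes tested, and their median r with the members' mean was 0.00, with none above 0.5. RPS6KA1, the ERK-activated kinase RSK1, rose by 1.46 (SE 0.28, limma adjusted p = 2.42e-05) and ELK3, a ternary complex factor of SRF, by 1.10 (SE 0.31, adjusted p = 0.00216). RPS6KA5, the kinase MSK1 that phosphorylates CREB and histone H3, fell by 1.84 (SE 0.32, limma adjusted p = 5.9e-06). Higher calls numbered 1 in the DESeq table and without normal C and 3 without normal D, and lower calls 2 in the DESeq table.

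Of 6 other dual-specificity phosphatases measured, 2 were called higher and 2 lower, beside 10.7% and 45.8% of all genes tested. DUSP4 rose by 3.96 (SE 0.64, limma adjusted p = 1.64e-06) and DUSP6, the ERK-specific cytoplasmic phosphatase, by 2.28 (SE 0.36, adjusted p = 1.11e-06). DUSP8 fell by 2.07 (SE 0.65, limma adjusted p = 0.00502) and DUSP2 by 1.21 (SE 0.50, adjusted p = 0.0314), and lower calls dropped to 1 without normal B, C or D. Over tumors, DUSP4 had r = 0.01 with the members' mean, against 0.49 for DUSP2. The highest of the 6 was DUSP7, which was not called, at r = 0.56, the 1 phosphatase above 0.5.

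Known AP-1 target genes gave 2 of 11 higher, 1 lower and 8 not called, beside 10.7% higher and 45.8% lower overall. MMP9, a gelatin-cleaving metalloproteinase, rose by 2.98 (SE 1.00, limma adjusted p = 0.0086) and PLAUR, the urokinase receptor, by 1.81 (SE 0.52, adjusted p = 0.00254). VIM, the mesenchymal intermediate filament, fell by 3.11 (SE 0.47, limma adjusted p = 4.29e-07), as the fibroblast and muscle markers did. Of the 11, 2 had r above 0.5 with the members' mean, a list median of 0.33.

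The members were last compared with the cell type markers over the 29 tumors, by the correlation of each member with the mean z of each of 6 marker lists. Of 60 relations, 8 passed a Benjamini-Hochberg adjusted permutation p of 0.05, 7 of them positive. EGR3 with the leukocyte list was the strongest, at r = 0.672 (rho 0.680, adjusted permutation p = 0.0048 by r). It passed each time 1 tumor was left out, with r of 0.646 to 0.714, and among the 26 tumors without tumors 14, 17 and 25 it was 0.682 (adjusted permutation p = 0.0078). In those 26 tumors it was the 1 relation of the 60 that passed.

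DUSP1 with the leukocyte list had r = 0.581 (adjusted permutation p = 0.0282) and passed in 24 of the 29 times that 1 tumor was left out. JUN with the endothelial list had r = 0.548 (adjusted permutation p = 0.0432) and passed in 21. ATF3 with the leukocyte list, EGR1, FOSB and DUSP1 with the endothelial list (r of 0.501 to 0.507) and JUN with the urothelial list (r = -0.512) all had an adjusted permutation p of 0.0447 and passed in 13 to 16. ATF3 with the leukocyte list did not pass by rho (adjusted permutation p = 0.0637) or with the share of genes at the lowest value regressed out (0.0635). JUN with the leukocyte list (r = 0.475) passed by rho (adjusted permutation p = 0.0492) and in the DESeq table (0.0497), and EGR3 with the endothelial list passed under that regression (0.0477). The number of relations that passed ran from 1 (without tumor 12, 20, 24 or 25) to 11 (without tumor 3 or 16). Smooth muscle markers, far higher in the normals than in the tumors, gave r of -0.05 to 0.17 with the members over tumors but rho of 0.077 to 0.386, and Schwann and nerve markers r of -0.12 to 0.15 and rho of -0.13 to 0.31. Tumor 29 lowered all of these r values: without it they ran from 0.13 (IER2) to 0.38 (JUN) for smooth muscle and from -0.047 (JUNB) to 0.31 (JUN) for Schwann and nerve markers. None of these relations passed the test by r or by rho, or by r when any 1 tumor was left out.

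**Figure D5:**
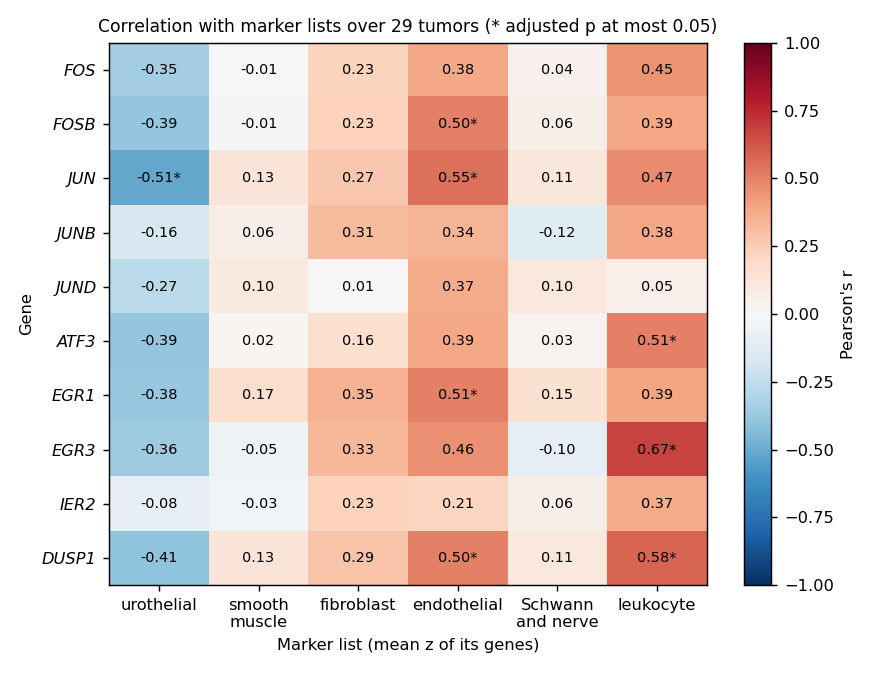
Pearson's r over the 29 tumors (colour and printed number) between each of the 10 genes (rows) and the mean z of each marker list (columns); an asterisk marks an adjusted permutation p of at most 0.05. EGR3 with the leukocyte list is highest at 0.672, and the smooth muscle column lies between -0.05 and 0.17, or between 0.13 and 0.38 without tumor 29.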

How the data were processed

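The authors removed ribosomal RNA, sequenced all libraries paired-end on an Illumina instrument in a single batch, aligned the reads to CanFam 3.1 with COBWeb in Strand NGS 3.1 and normalized gene quantities by TMM and, separately, by DESeq. They deposited log2 values minus each gene's median over the 33 samples. These are not counts, so depth per sample is unknown and no count test was run. The last line of both tables is incomplete and was left out. Replicates are separate dogs. Members and lists were chosen with earlier results of these data known.

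Genes at a lowest value shared by at least 2 samples had to exceed it in at least 4 samples to be tested. Tumors were compared with normals on the TMM-normalized values in limma 3.58.1 (lmFit, eBayes with a mean-variance trend, R 4.3.3), with Benjamini-Hochberg adjustment over 24471 genes, and each member also by a two-sided exact permutation test. Correlations over tumors have two-sided permutation p-values from 100000 resamples, adjusted over 45 pairs or 60 member and marker list relations. Scripts were tested on simulated data. These steps ran in Python 3.11.15 (scipy 1.17.1, numpy 2.4.6).

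Named genes are every member, for each other pathway list the 2 called genes that rose most and the 2 that fell most, and the 10 genes most like the members' mean. Alternatives were the DESeq-normalized table deposited by the authors, samples centred on genes with a median above the lowest value, limma with group weights or with no trend, no filter or a filter on the median, no fold-change threshold, each normal left out, Spearman's rho, the share of genes at the lowest value regressed out, and the 2 tumors farthest from the median left out. Leaving out tumors 14, 17 and 25, or each tumor in turn, was chosen after seeing the data. The RefSeq gene table of another canine assembly served for symbols and for which genes neighbour each other.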

Additional observations from a re-analysis of the deposited data

How the results depend on the processing

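Of the alternatives run on the 10 log2 fold changes, 406 values kept their direction and were called or not called as before, though EGR1 without normal B was 1.20 and EGR3 -0.82, across the 2-fold line from the values reported. JUN changed sign without normal D and ranged from -0.45 to 0.081 as each normal was left out. EGR1 was 0.52 and DUSP1 -0.95 without normal A. IER2 was under 2-fold (0.85) in the DESeq table. ATF3 was called without tumor 4 or tumor 29. Members called higher numbered 5 to 6 as each tumor was left out, and 5 under every other alternative but the DESeq table, with 4. Those called lower were 0 throughout, by limma and by the exact test. Of 60 relations with marker lists, 8 passed, but 1 without tumors 14, 17 and 25, 5 without the 2 farthest tumors, and 1 to 11 as each tumor was left out. Of the 8, EGR3 with leukocyte markers passed each time. DUSP1 with leukocyte markers and JUN with endothelial markers kept r of 0.505 to 0.660 and 0.489 to 0.589 as each tumor was left out, while the adjusted p crossed 0.05. No paired analysis was possible because the normals came from other dogs than the tumors. The 4 normals limit the precision of every fold change. The causes were not tested.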

Other observations

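Heat shock genes belong to another rapid stress response. Of 17 listed, HSPA1A, HSPA8, HSPD1, DNAJA1 and BAG3 had no row under their symbol. Of 12 measured, 6 were called higher in tumors, 2 lower and 4 not, beside 10.7% higher and 45.8% lower of all genes tested, with a median log2 fold change of 0.93. There were 4 higher and 2 lower calls in the DESeq table, with a median of 0.63. HSPH1, a cytosolic co-chaperone of the HSP70 family, rose by 2.69 (SE 0.32, limma adjusted p = 3.98e-09), and HSPA5, the chaperone of the endoplasmic reticulum, by 2.37 (SE 0.25, adjusted p = 3.9e-10). HSPA2, a testis-enriched HSP70, fell by 2.23 (SE 0.37, limma adjusted p = 2.28e-06) and HSPA1L by 1.33 (SE 0.33, adjusted p = 0.000657). Over the 29 tumors, none of the 12 had r above 0.5 with the mean z of the immediate-early genes, and the median r was -0.06, against 0.56 for the 26 other early response genes. HSP90AA1, named after its values were seen, rose by 2.18 on the log2 scale (SE 0.25) and had r = -0.42 with that mean.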
